A study of Homo sapiens with 21 samples.

Results

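Glycolysis turns glucose into pyruvate in the cytosol, and lactate dehydrogenase reduces that pyruvate to lactate when it does not enter the mitochondria. HIF1A and EPAS1, the oxygen-regulated subunits of the hypoxia-inducible factors (HIF), are hydroxylated by the EGLN oxygen sensors and degraded when oxygen is plentiful, and when oxygen falls they bind short DNA cores and raise many glycolytic genes together with targets outside glycolysis. Tumour cells of the colon run glycolysis strongly even with oxygen present, so both gene groups are commonly followed there. The 40 genes described here were named one by one for these roles: 19 glycolytic enzymes with the PFKFB regulators, 4 genes of glucose and lactate transport with PDK1, 4 HIF subunits and oxygen sensors, and 13 HIF targets outside the pathway. All 40 were found among the 65065 genes of the deposited count table, and all 40 passed the filter on low counts, among 19556 genes that did.

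The genes were followed in HCT-116, a line of human colorectal carcinoma cells that grow as an epithelium. The cells received extracellular vesicles taken from the serum of people with hepatocellular carcinoma (HCC+) or of healthy people (HCC-), at 1.2, 0.24 or 0.048 mg/mL, or were left as a blank with no vesicles. Each of these 7 groups held 3 libraries of polyadenylated RNA, 21 in all, and every group, the blank included, was grown in DMEM with antibiotics and with serum depleted of exosomes. The labels name neither the number of serum donors nor the time of exposure, and do not say that replicates were separate cultures, so p-values measure only the spread between these libraries. A single cell line was used.

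The libraries held 31.22 to 64.01 M counts. Epithelial markers were strong in all groups, with a summed level of 3260 to 4930 CPM (counts scaled to library size) over 7 genes, among them EPCAM and the keratins KRT8 and KRT18, while CEACAM5 did not pass the filter. This sum was 3660 to 4450 CPM in the blank, 3880 to 4130 with HCC+ vesicles at 1.2 mg/mL, 3260 to 3530 with HCC- vesicles at that dose, where 3 of 6 tested genes fell, and 4450 to 4930 with HCC- vesicles at 0.048 mg/mL, where 3 rose and 1 fell. Markers of other cell types were low, and PPBP and PF4 of platelets, S100A8 and S100A9 of leukocytes and LUM of fibroblasts had 0 counts throughout. Several lists moved with the highest dose. The summed level of 5 endothelial markers, 4 of which passed the filter, was 0.64 to 0.898 CPM in the blank libraries, 3.25 to 4.08 at 1.2 mg/mL of HCC+ and 7.21 to 9.29 at 1.2 mg/mL of HCC- vesicles. The sum over 7 leukocyte markers (3 passed) was 1.15 to 1.53, 2.97 to 4.19 and 5.09 to 6.92 CPM in the same groups, and that over 5 fibroblast markers (1 passed, COL1A1) was 14.2 to 17.7, 21.3 to 30.8 and 28.6 to 34.6 CPM. The platelet sum (4 of 7 passed) went down, at 27.5 to 31.7, 20.4 to 22.1 and 13.3 to 16.4 CPM in that order, and that of red cell markers (2 of 7 passed) was 0.0677 to 0.2, 0.389 to 0.936 and 0.371 to 1.0 CPM. For liver markers (2 of 6 passed) the sum was 2.06 to 2.29, 3.08 to 3.52 and 2.19 to 3.33 CPM, again in that order. The part of these RNAs in the results below was not tested. In bulk RNA, fewer cells with a transcript and less transcript per cell cannot be told apart.

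In the blank, the later steps of glycolysis held some of the most abundant transcripts of the cell. Per length of gene model, GAPDH, which oxidises glyceraldehyde-3-phosphate, stood at 1594 ± 217 RPKM (reads scaled to library size and gene length; mean ± SD, n = 3), the 19th highest of the 19556 genes tested. ENO1, the main enolase, followed at 698 ± 65.9 RPKM (40th), TPI1, the triosephosphate isomerase, at 429 ± 53.6 (60th), and the pyruvate kinase PKM at 322 ± 34.2 (82nd). Per length, the enzymes of the first steps were far lower, with GPI, the glucose phosphate isomerase, at 70.9 ± 9.75 RPKM, the platelet-type phosphofructokinase PFKP at 56.0 ± 7.51 and the hexokinase HK2 at 25.2 ± 4.19. RPKM depends on the gene model, which counts 10680 exon bases for GPI and 14883 for PDK1, against 2396 for GAPDH. Without length, GPI had a mean of 757 CPM in the blank, above the later enzymes PGAM1 at 697 and PGK1 at 691. PDK1, the kinase that shuts pyruvate dehydrogenase, was low at 1.22 ± 0.130 RPKM, and CA9, a carbonic anhydrase of the cell surface and a widely used HIF marker, was lower still at 0.449 ± 0.151. ALDOA, usually the main aldolase, was listed at only 1.98 ± 0.657 RPKM, but 53.5% of its exon bases are shared with another gene on the same strand, so its reads could have gone uncounted and its level is uncertain. The same applies in part to LDHB, with 33.4% of its exon bases shared on the same strand.

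Promoters are shown because HIF acts through them. Many of the genes were named as HIF targets, so their share of windows with a core is not independent of the choice of genes. Windows from 250 bases before to 50 after the annotated start were taken from RefSeq (GRCh38.p14) for 36 of the 40 genes, not for SLC2A3, VEGFA, BNIP3L and NDRG1. Both strands were searched for the HIF core ACGTG or GCGTG, which on the opposite strand reads CACGT or CACGC, and CACGTG counts once on each strand. A core was present in 27 of the 36 windows, in 14 of 19 enzymes and 9 of 10 HIF targets, against 48.4% of 27305 promoters of the same length. LDHA (plus strand, chr11:18394313-18394612), PGK1 (plus, chrX:78103998-78104297) and BNIP3 (minus, chr10:131981874-131982173) are printed as windows with many cores, 6, 4 and 6. Windows of ALDOC, with 5 cores, and of DDIT4 and BHLHE40, with 4 each, are not printed. ALDOC was not called against the blank at the highest dose of HCC- vesicles. PKM (minus, chr15:72231141-72231440), an abundant enzyme not called lower at the highest dose of HCC- vesicles, has 1, and PDK1 (plus, chr2:172555123-172555422), which fell most there, has 0 in this window. Capitals mark the cores, 5′ to 3′ on the gene's strand, and a match is a description of the letters only.
LDHA: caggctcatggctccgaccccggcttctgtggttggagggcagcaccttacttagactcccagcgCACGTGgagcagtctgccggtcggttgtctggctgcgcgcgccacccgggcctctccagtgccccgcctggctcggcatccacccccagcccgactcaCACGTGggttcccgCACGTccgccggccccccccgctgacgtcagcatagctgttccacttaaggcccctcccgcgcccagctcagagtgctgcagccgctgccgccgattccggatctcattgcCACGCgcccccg
PGK1: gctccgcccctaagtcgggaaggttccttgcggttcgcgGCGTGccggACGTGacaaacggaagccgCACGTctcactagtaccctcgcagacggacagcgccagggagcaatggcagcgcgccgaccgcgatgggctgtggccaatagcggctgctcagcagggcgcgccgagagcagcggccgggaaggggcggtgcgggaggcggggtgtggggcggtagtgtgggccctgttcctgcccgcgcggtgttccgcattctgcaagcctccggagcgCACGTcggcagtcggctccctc
BNIP3: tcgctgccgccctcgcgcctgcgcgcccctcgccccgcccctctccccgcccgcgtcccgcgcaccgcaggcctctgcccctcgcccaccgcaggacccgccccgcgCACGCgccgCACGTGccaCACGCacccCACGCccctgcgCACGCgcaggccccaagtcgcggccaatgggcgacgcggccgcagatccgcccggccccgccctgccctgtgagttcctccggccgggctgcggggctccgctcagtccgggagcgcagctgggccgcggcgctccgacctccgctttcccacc
PKM: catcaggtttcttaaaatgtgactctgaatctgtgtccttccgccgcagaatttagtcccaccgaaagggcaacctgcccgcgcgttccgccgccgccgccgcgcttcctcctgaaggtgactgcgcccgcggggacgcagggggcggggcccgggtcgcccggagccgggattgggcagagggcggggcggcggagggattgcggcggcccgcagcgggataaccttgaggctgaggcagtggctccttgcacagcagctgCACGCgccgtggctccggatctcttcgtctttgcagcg
PDK1: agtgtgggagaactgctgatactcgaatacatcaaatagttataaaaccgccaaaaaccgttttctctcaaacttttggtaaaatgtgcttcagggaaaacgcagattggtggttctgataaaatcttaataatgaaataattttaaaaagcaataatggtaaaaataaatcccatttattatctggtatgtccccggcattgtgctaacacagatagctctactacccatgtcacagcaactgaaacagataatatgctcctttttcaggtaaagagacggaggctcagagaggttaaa

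With HCC- vesicles at 1.2 mg/mL, nearly the whole glycolytic chain was lower than in the blank. Of the 19 enzymes 15 fell and 2 rose (1 with GC and length trends removed), by edgeR's quasi-likelihood test at a Benjamini-Hochberg adjusted p under 0.05, where 28.5% of all tested genes fell and 24.8% rose. The median log2 fold change of the 19 was -0.77, against 0.051 over all genes. The 15 covered the chain apart from the aldolase and pyruvate kinase steps: HK1 and HK2, GPI, all of PFKL, PFKM and PFKP, PFKFB4, TPI1, GAPDH, PGK1, PGAM1, ENO1, ENO2, and after pyruvate LDHA and LDHB. ALDOA and ALDOC were not called, at -0.092 and -0.47.

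**Figure D1:**
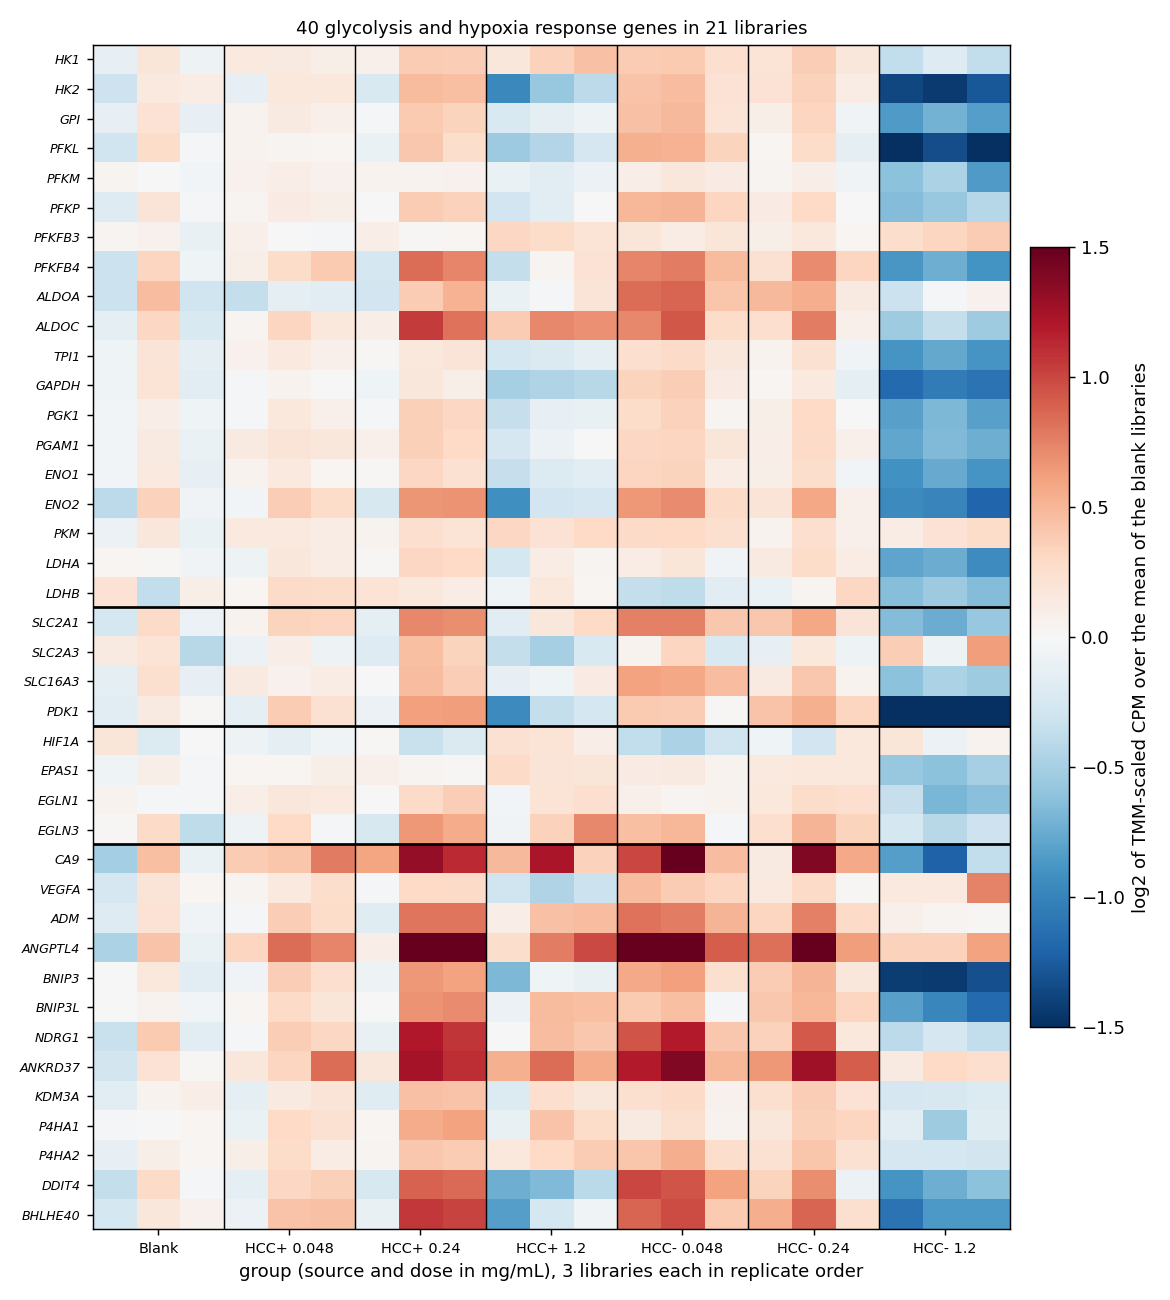
The 40 genes (rows, grouped from top to bottom as glycolytic enzymes, transport and PDK1, HIF subunits and oxygen sensors, HIF targets) in the 21 libraries (columns, by group); colour is the log2 of the TMM-scaled CPM over the blank mean, and values beyond 1.5 on either side are drawn in the end colours. The columns of HCC- vesicles at 1.2 mg/mL are blue for most enzymes, and among the HIF targets whole columns within a group are paler or redder than their neighbours.

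PFKL, the liver-type phosphofructokinase, fell most among the enzymes. Its level was 145, 216 and 174 CPM in the blank libraries and 63.5, 70.9 and 56.8 with HCC- vesicles at 1.2 mg/mL. All 3 treated libraries lay below all 3 blank ones, a 2.80-fold lower level (log2 fold change -1.49 ± 0.15 SE, adjusted p = 6.61e-08). HK2, the inducible hexokinase that traps glucose in the cell, went from 124, 169.5 and 166 CPM to 59.2, 56.8 and 63.6, again without overlap (log2 fold change -1.35 ± 0.18 SE, adjusted p = 9.99e-06). GAPDH had 3659.9, 4399.6 and 3397 CPM in the blank and 1699, 1851 and 1769 with the vesicles. Here too the groups were apart, 2.15-fold (log2 fold change -1.11 ± 0.077 SE, adjusted p = 3.06e-13). GAPDH is often used as a reference transcript for other genes.

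The neuronal-type enolase ENO2, a minor form here, had 28.0, 46.9 and 35.4 CPM in the blank and 19.0, 18.5 and 16.1 after HCC- vesicles (log2 fold change -1.04 ± 0.26 SE, adjusted p = 0.00337). Its abundant relative ENO1 had 3581, 4067 and 3393 CPM and then 1964, 2179.7 and 1998 (log2 fold change -0.85 ± 0.078 SE, adjusted p = 1.31e-10). Neither enolase overlapped between these groups. LDHA, the lactate-forming dehydrogenase, had 1561, 1552 and 1474 CPM in the blank and 882, 909.7 and 794 with HCC- vesicles (log2 fold change -0.83 ± 0.086 SE, adjusted p = 3.43e-09), and its groups did not overlap either. Between these, TPI1 (-0.84 ± 0.072), PGK1 (-0.77 ± 0.092), PGAM1 (-0.73 ± 0.074) and GPI (-0.80 ± 0.10, log2 fold change ± SE) changed by similar amounts, and PFKM (-0.64 ± 0.065), LDHB (-0.60 ± 0.12) and PFKP (-0.55 ± 0.10) by somewhat less.

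PFKFB3 and PKM were the exceptions. PFKFB3, which makes the fructose-2,6-bisphosphate that activates phosphofructokinase, had 76.7, 78.1 and 69.0 CPM in the blank and 89.8, 93.5 and 97.1 with HCC- vesicles at 1.2 mg/mL, a rise with no overlap (log2 fold change 0.33 ± 0.062 SE, adjusted p = 4.18e-05). PFKFB4, its relative, went the other way, from 41.8, 65.6 and 50.01 to 28.7, 31.7 and 28.1 CPM (log2 fold change -0.83 ± 0.25 SE, adjusted p = 0.0115), a call lost under scaling to total counts and without blank replicate 2. PKM had 2602, 3101 and 2585 CPM in the blank and 2973, 3210.4 and 3344 with the vesicles. The ranges overlapped, and the rise was small (log2 fold change 0.20 ± 0.064 SE, adjusted p = 0.00872). It was not called without HCC- replicate 3 or blank replicate 1 or 3, and after removal of GC content and gene length trends the value was -0.0033, so its direction is uncertain. The smallest fall was that of HK1, the constitutive hexokinase, from 109.6, 135 and 113 to 92.1, 105 and 92.6 CPM (log2 fold change -0.31 ± 0.083 SE, adjusted p = 0.00241), which was not called under scaling to total counts.

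HCC+ vesicles at the same dose gave a smaller and mixed picture. Of the 19 enzymes 5 fell and 3 rose, where 17.4% of all tested genes fell and 15.6% rose, so that 5 and 3 of 19 are shares near the background, and the median was -0.12. HK2 fell most, to 78.0, 103 and 116 CPM, below all blank libraries (log2 fold change -0.63 ± 0.18 SE, adjusted p = 0.0131). GAPDH fell to 2714, 2794 and 2864 CPM, also below every blank library (log2 fold change -0.45 ± 0.077 SE, adjusted p = 2.63e-05). PFKL, at 123, 131 and 149.8 CPM, overlapped the lowest blank library (log2 fold change -0.41 ± 0.14 SE, adjusted p = 0.0339). ENO1, at 2896, 3189 and 3261 CPM, lay below the blank range (log2 fold change -0.24 ± 0.077 SE, adjusted p = 0.016), while TPI1, at 964, 997 and 1057 against 1104, 1321 and 1047 in the blank, overlapped it with 1 library (log2 fold change -0.20 ± 0.071 SE, adjusted p = 0.0281).

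Apart from GAPDH these falls rested on few libraries. Without HCC+ replicate 1 or without blank replicate 2, 1 enzyme was called lower in place of 5, and 3 without HCC+ replicate 2 or blank replicate 3. Under scaling to total counts, which moved the median of all genes to 0.13 for HCC+ and to 0.33 for HCC- vesicles against the blank, 2 were called lower. The 3 enzymes that rose were HK1, PKM and PFKFB3. HK1 had 134, 151 and 161 CPM, with 1 library inside the blank range (log2 fold change 0.32 ± 0.083 SE, adjusted p = 0.0031), PKM had 3417, 3209.8 and 3411 CPM, all above the blank (log2 fold change 0.28 ± 0.064 SE, adjusted p = 0.00104), and PFKFB3 had 92.5, 90.1 and 86.0 CPM, also all above it (log2 fold change 0.26 ± 0.062 SE, adjusted p = 0.00121). LDHA, at 1277, 1653 and 1570.3 CPM, was not called (-0.028), and the other uncalled enzymes ran from -0.46 for ENO2 to 0.60 for ALDOC.

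**Figure D2:**
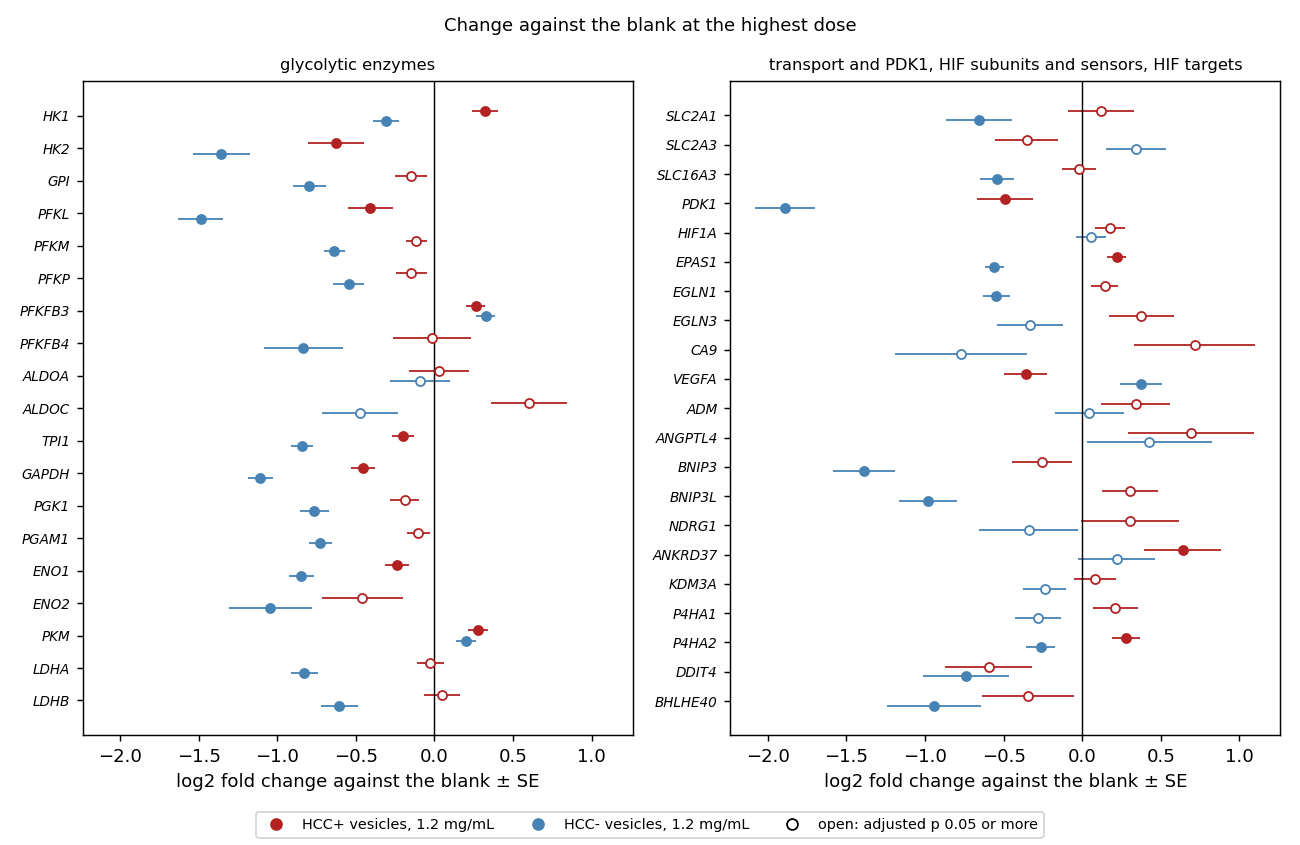
Log2 fold change against the blank (x axis, point ± SE) of each of the 40 genes (y axis) at 1.2 mg/mL, HCC+ vesicles in red and HCC- vesicles in blue; filled points passed an adjusted p of 0.05. Most enzymes have a blue point to the left of the red one, and PKM and PFKFB3 have both points to the right of 0, PKM with HCC- vesicles at -0.0033 when GC and length trends are removed.

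The 2 sources differed directly at this dose. Against HCC- vesicles, 15 of the 19 enzymes were higher with HCC+ vesicles and 0 lower, where 22.6% of all tested genes were higher and 12.7% lower. The enzyme with the largest difference was PFKL (log2 fold change 1.08 ± 0.14 SE, adjusted p = 1.09e-05). ALDOC, the brain-type aldolase, came next although it was not called against the blank with either source: it had 74.0, 94.2 and 91.5 CPM with HCC+ and 39.3, 44.7 and 39.4 with HCC- vesicles (log2 fold change 1.07 ± 0.24 SE, adjusted p = 0.00286), on either side of the blank at 51.8, 70.7 and 48.7. PFKFB4 had 41.0, 54.0 and 60.8 CPM with HCC+ vesicles (log2 fold change 0.82 ± 0.25 SE, adjusted p = 0.0193), and its 3 libraries lay above all those with HCC- vesicles, but total count scaling or leaving out any 1 of 4 libraries ended the call. LDHA differed by 0.80 ± 0.086 and HK2 by 0.73 ± 0.18, both without overlap. HK1, which rose with HCC+ and fell with HCC- vesicles, differed by 0.63 ± 0.083. The 4 enzymes not called between the sources were ALDOA (0.12), ENO2 (0.58), PKM (0.075) and PFKFB3 (-0.063). Scaling to total counts moved the median of all genes to -0.16 and gave 14 enzymes higher and 1 lower.

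The source difference was itself compared between doses. At 0.24 mg/mL 0 of the 19 enzymes differed between the sources, and the difference at 1.2 mg/mL exceeded that at 0.24 mg/mL for 11 enzymes and fell short for 0, where this test called 15.1% of all genes in the first direction and 6.26% in the other. PFKL (0.94 ± 0.20), LDHA (0.76 ± 0.12) and GAPDH (0.60 ± 0.11) had the largest gaps between doses among the 11. For HK2 the gap was 0.69 ± 0.25 (adjusted p = 0.0664) and was not called.

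**Figure D3:**
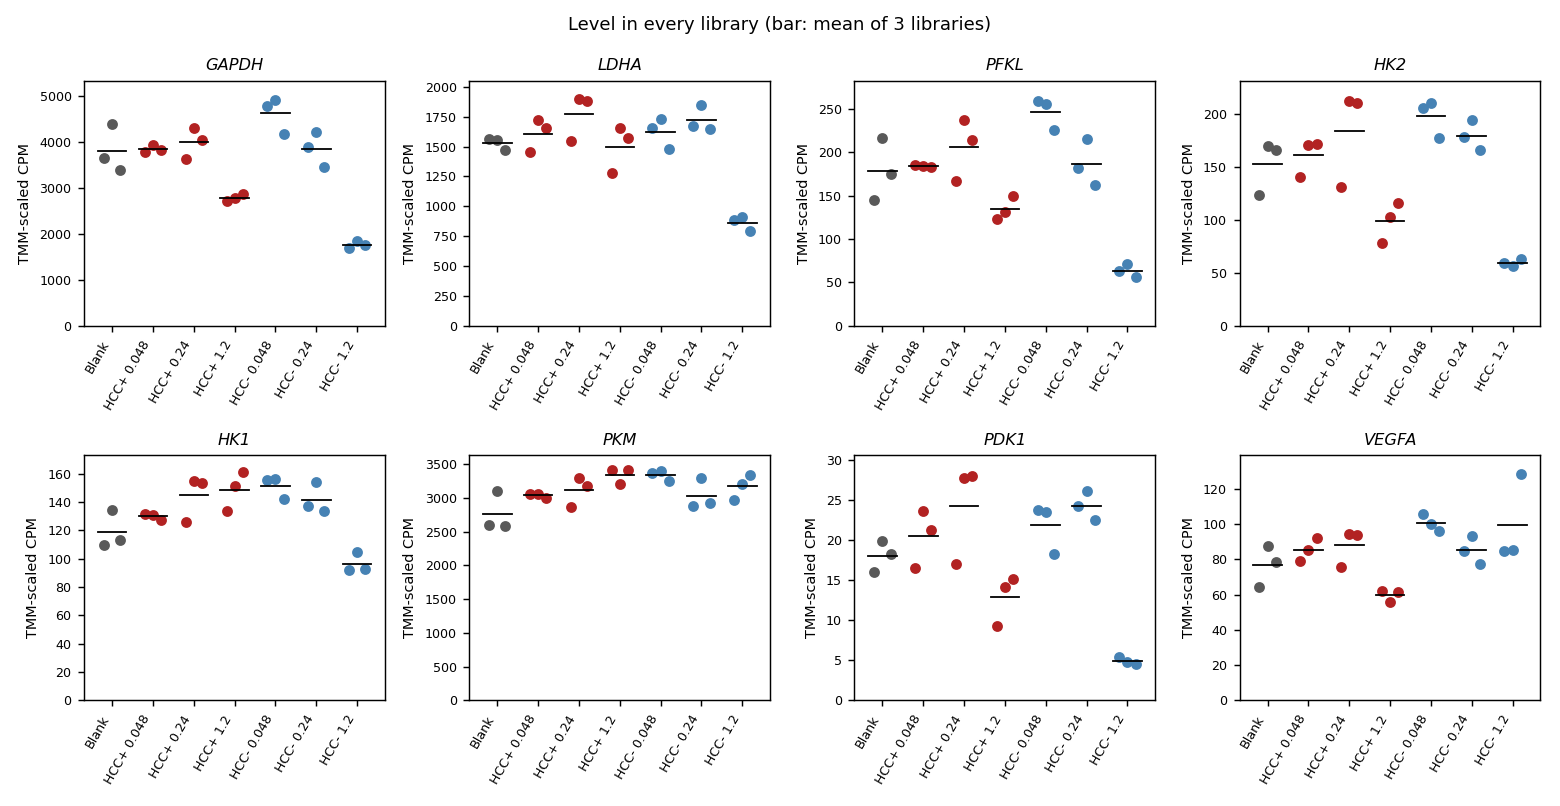
TMM-scaled CPM (y axis, from 0) of 8 genes in every library of the 7 groups (x axis; points are libraries, bars the mean of 3), blank in grey, HCC+ in red, HCC- in blue. GAPDH, LDHA, PFKL, HK2 and PDK1 are lowest with HCC- vesicles at 1.2 mg/mL, PKM is not, and VEGFA is lowest with HCC+ vesicles at 1.2 mg/mL.

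Within families, the balance of isozymes shifted at the highest dose. HK2 made up 54.0%, 56.6% and 60.3% of the summed RPKM of HK1 and HK2 in the blank libraries, 37.7%, 41.4% and 42.8% with HCC+ and 40.03%, 36.0% and 41.6% with HCC- vesicles at 1.2 mg/mL. Neither treated group overlapped the blank, and the sources overlapped each other. At the lower doses the mean share stayed between 56.1% and 57.5%. PFKL made up 19.2% ± 1.80 of the phosphofructokinases in the blank (SD, n = 3), 16.6% ± 0.453 with HCC+ and 11.3% ± 1.10 with HCC- vesicles, and the 3 groups did not overlap. PFKP, the largest part, stood at 54.2% ± 1.53, 55.6% ± 1.47 and 60.9% ± 4.40 in the same order. An exact 2-sided permutation test of 3 against 3 libraries cannot give less than 0.1, which was its value for each non-overlapping pair here (0.23 after Benjamini-Hochberg adjustment over 21 such tests), so these shifts could not pass 0.05. ENO2 stayed a minor part of the enolases at 1.04% to 1.49% (group means), and LDHB was listed as a minor part of the dehydrogenases at 2.12% to 3.17%. LDHB shares 33.4% of its exon bases with a gene on the same strand, so its reads could have gone uncounted and its share is uncertain. Aldolase shares were not computed because of the overlap at ALDOA, which had 6.19, 10.7 and 6.31 CPM in the blank against 51.8, 70.7 and 48.7 for ALDOC.

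**Figure D4:**
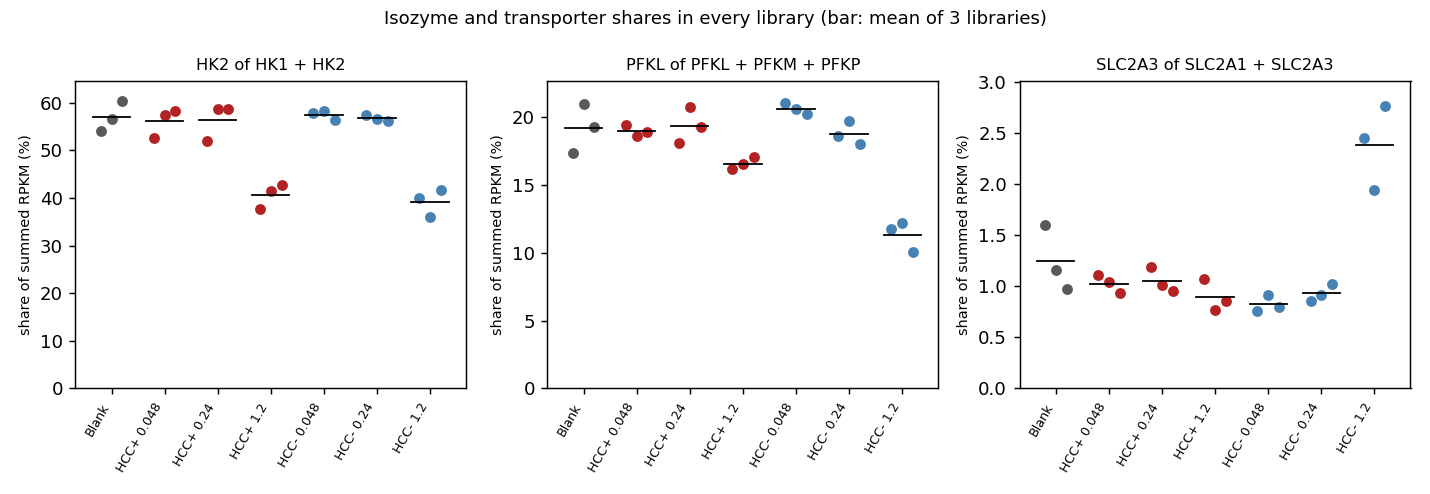
Share of the summed RPKM (y axis, percent, from 0) held by HK2 among HK1 and HK2, by PFKL among the 3 phosphofructokinases, and by SLC2A3 among SLC2A1 and SLC2A3, in every library of the 7 groups (x axis; points are libraries, bars the mean of 3). The HK2 share lies between 36.0% and 42.8% in the 6 libraries at 1.2 mg/mL and between 51.9% and 60.3% in the others.

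At the entry and exit of the pathway, PDK1 changed most of all 40 genes. It had 16.04, 19.9 and 18.3 CPM in the blank and 5.37, 4.80 and 4.51 with HCC- vesicles at 1.2 mg/mL, 3.70-fold lower with no overlap (log2 fold change -1.89 ± 0.19 SE, adjusted p = 1.25e-08). With HCC+ vesicles it had 9.30, 14.2 and 15.1 CPM, also below the blank range (log2 fold change -0.49 ± 0.18 SE, adjusted p = 0.0382), a call lost under total count scaling, with DESeq2, with GC and length trends removed, and without HCC+ replicate 1, blank replicate 2 or blank replicate 3. The sources differed by 1.40 ± 0.19. In this class of 4 genes, 3 fell with HCC- vesicles, beside 28.5% of all tested genes, and 1 with HCC+ vesicles, beside 17.4%, and 0 rose. Total count scaling gave 2 lower and 1 higher, SLC2A3, with HCC- vesicles and 0 lower with HCC+, and DESeq2 also gave 0 lower with HCC+ vesicles.

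Both abundant transporters were lowest with HCC- vesicles. SLC2A1 (GLUT1), the main glucose carrier of these cells, had 197, 289 and 223 CPM in the blank, 212, 267 and 291 with HCC+ and 151, 141 and 159 with HCC- vesicles. The HCC- libraries lay below both other groups (against the blank, log2 fold change -0.65 ± 0.21 SE, adjusted p = 0.0166), though scaling to total counts, or leaving out HCC- replicate 2 or blank replicate 2, ended that call. SLC16A3 (MCT4), which exports lactate, had 387, 506 and 394 CPM in the blank, 392, 411 and 466 with HCC+ and 280.0, 309 and 296 with HCC- vesicles, and fell with the latter, below all other libraries (log2 fold change -0.54 ± 0.11 SE, adjusted p = 0.000176). Its change with HCC+ vesicles, -0.02, was not called, and the sources differed by 0.52 ± 0.11. SLC2A3 (GLUT3) was rare and went the other way: 2.94, 2.65 and 3.20 CPM with HCC+ and 4.86, 3.57 and 5.81 with HCC- vesicles, against 4.13, 4.33 and 2.82 in the blank. Of the 3 comparisons at 1.2 mg/mL it was called in that between the sources (log2 fold change -0.70 ± 0.19 SE, adjusted p = 0.00449), not without HCC- replicate 3. Its share of both carriers was 1.24% ± 0.322 in the blank, 0.895% ± 0.154 with HCC+ and 2.38% ± 0.417 with HCC- vesicles (SD, n = 3).

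Of the HIF subunits, HIF1A transcript did not pass at the highest dose with either source, at 221, 169 and 196 CPM in the blank, 229, 224 and 209.7 with HCC+ and 221, 184 and 203 with HCC- vesicles, and these groups overlapped. HIF1A is regulated mainly as a protein, which was not measured here. EPAS1 (HIF2A) had 56.9, 63.2 and 58.6 CPM in the blank, 72.6, 67.9 and 67.5 with HCC+ vesicles and 40.3, 39.0 and 42.1 with HCC- vesicles. The HCC+ libraries lay above and the HCC- libraries below all blank ones, so it rose with HCC+ vesicles (log2 fold change 0.22 ± 0.061 SE, adjusted p = 0.00526) and fell with HCC- vesicles (log2 fold change -0.56 ± 0.061 SE, adjusted p = 3.44e-09), under every alternative tried. EGLN1, the main HIF prolyl hydroxylase, had 84.9, 80.1 and 80.7 CPM in the blank, 79.8, 94.1 and 97.2 with HCC+ and 64.4, 50.9 and 53.0 with HCC- vesicles, and fell with the latter without overlap (log2 fold change -0.54 ± 0.084 SE, adjusted p = 1.85e-06). EGLN3, a hydroxylase that HIF itself induces, had 8.97, 11.7 and 15.3 CPM with HCC+ and 7.71, 6.94 and 7.45 with HCC- vesicles and of the 3 comparisons at 1.2 mg/mL was called in that between them (log2 fold change 0.71 ± 0.20 SE, adjusted p = 0.00839), not without HCC+ replicate 3. In all, 1 of the 4 rose with HCC+ vesicles, where 15.6% of all tested genes did, 2 fell with HCC- vesicles, beside 28.5%, and 3 were higher with HCC+ than with HCC- vesicles, beside 22.6%. The first count depended on the scaling: total count scaling called all 4 higher with HCC+ vesicles, and 1 higher and 2 lower with HCC-. HIF1A was among the genes called higher under it with both sources, as it was with GC and length trends removed.

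The HIF targets outside glycolysis gave fewer calls than the enzymes, but they also varied more between libraries of a group. Their median within-group SD was 0.28 on the log2 scale, against 0.14 for the enzymes, so the counts of calls are not a like comparison. With HCC- vesicles at 1.2 mg/mL 5 of 13 fell and 1 rose (median -0.28), and with HCC+ vesicles 2 rose and 1 fell (median 0.28). Against the shares of all tested genes given above, 28.5% lower and 24.8% higher for HCC-, and 17.4% lower and 15.6% higher for HCC+ vesicles, the 2 and 1 of 13 with HCC+ vesicles are shares at or below the background. Between the sources 5 were higher with HCC+ vesicles and 1 lower, beside 22.6% and 12.7% of all genes.

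BNIP3 and BNIP3L, which tag mitochondria for removal by autophagy, fell most of the targets with HCC- vesicles. BNIP3 had 62.2, 69.9 and 55.8 CPM in the blank, 39.2, 59.99 and 57.9 with HCC+ and 23.3, 23.1 and 25.2 with HCC- vesicles. The HCC- libraries lay far below the rest, 2.62-fold under the blank (log2 fold change -1.39 ± 0.20 SE, adjusted p = 1.59e-05). BNIP3L had 59.3, 61.6 and 57.7 CPM in the blank, 56.1, 82.7 and 81.4 with HCC+ and 33.8, 30.3 and 26.6 with HCC- vesicles and fell likewise (log2 fold change -0.98 ± 0.18 SE, adjusted p = 0.000242), and for both genes these falls passed under every alternative tried. BHLHE40, a transcriptional repressor, had 56.8, 76.3 and 71.1 CPM in the blank and 31.7, 37.3 and 37.5 with HCC- vesicles (log2 fold change -0.94 ± 0.30 SE, adjusted p = 0.0149), with no overlap, but was not called under total count scaling or without HCC- replicate 1. DDIT4, which restrains mTORC1, had 96.0, 150.0 and 121 CPM in the blank and 66.5, 73.7 and 80.2 with HCC- vesicles (log2 fold change -0.74 ± 0.28 SE, adjusted p = 0.035), without overlap. Leaving out any 1 library other than blank replicate 1 ended that call, which was also lost under total count scaling and without the filter on low counts.

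VEGFA, the angiogenic growth factor, was the 1 target of the 13 with a lower value with HCC+ than with HCC- vesicles at 1.2 mg/mL. It had 64.4, 87.6 and 78.5 CPM in the blank, 62.3, 56.1 and 61.5 with HCC+ and 84.8, 85.1 and 129 with HCC- vesicles at 1.2 mg/mL. Every HCC- library lay above every HCC+ library, and the sources differed by -0.73 ± 0.13 (adjusted p = 0.000208) under every alternative tried. Against the blank it changed by -0.36 ± 0.14 with HCC+ vesicles, below the blank range, and by 0.37 ± 0.13 with HCC- vesicles, overlapping it. The first call was lost under total count scaling, with DESeq2 and without any HCC+ library or blank replicate 2 or 3, and the second with GC and length trends removed and without HCC- replicate 3, blank replicate 1 or blank replicate 3.

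The collagen prolyl hydroxylases split between the sources as well. P4HA2 had 34.3, 39.7 and 38.0 CPM in the blank, 41.5, 45.8 and 48.5 with HCC+ and 31.3, 31.2 and 30.8 with HCC- vesicles. The 3 groups did not overlap, with a rise for HCC+ vesicles (log2 fold change 0.28 ± 0.091 SE, adjusted p = 0.0172), not called without HCC+ replicate 3 or blank replicate 1. With HCC- vesicles it was lower (log2 fold change -0.26 ± 0.091 SE, adjusted p = 0.0151), a value that read 0.018 under total count scaling and was not called without HCC- replicate 3 or blank replicate 2. P4HA1 had 52.8, 76.7 and 68.9 CPM with HCC+ and 51.0, 39.4 and 50.6 with HCC- vesicles and of the 3 comparisons at 1.2 mg/mL was called in that between the sources (log2 fold change 0.49 ± 0.14 SE, adjusted p = 0.0108), not under total count scaling, with GC and length trends removed, or without replicate 2 of either source. ANKRD37, a small HIF-induced ankyrin protein, rose with HCC+ vesicles from 1.93, 2.71 and 2.37 to 3.39, 4.16 and 3.43 CPM (log2 fold change 0.64 ± 0.24 SE, adjusted p = 0.0416), without overlap, but leaving out any 1 library other than blank replicate 2 ended the call. CA9 had 0.508, 0.984 and 0.674 CPM in the blank, 1.01, 1.68 and 0.920 with HCC+ and 0.407, 0.312 and 0.558 with HCC- vesicles, and was higher with HCC+ than with HCC- vesicles, without overlap (log2 fold change 1.48 ± 0.39 SE, adjusted p = 0.00325). DDIT4 shares 41.2%, ANKRD37 40.4% and CA9 36.1% of exon bases with a gene on the opposite strand, and the strand setting of the counting is not known, so reads of the partners cannot be told apart. ADM, ANGPTL4, NDRG1 and the histone demethylase KDM3A were called in none of the 3 comparisons at 1.2 mg/mL, with log2 fold changes against the blank of 0.34, 0.69, 0.30 and 0.082 for HCC+ and 0.045, 0.43, -0.34 and -0.24 for HCC- vesicles.

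At 0.24 mg/mL 0 of the 40 genes were called against the blank with either source, nor between the sources, by edgeR's quasi-likelihood test, and 0 with DESeq2. Without the filter on low counts, 2 were higher with HCC+ vesicles, 1 enzyme and 1 HIF target, and 1 HIF target with HCC-. Of all 37659 genes in that fit, 24 were higher with HCC+ and 8 with HCC- vesicles. With the filter the background was as empty as the 40 genes, with 0.00511% of all tested genes higher and 0.0% lower with HCC+ vesicles, and 0.0% in either direction with HCC- vesicles or between the sources. At an unadjusted p under 0.05 there were 23 of 40 with HCC+ vesicles, 12 with HCC- vesicles and 0 between them. The same threshold took 1193, 905 and 462 of all 19556 tested genes, in the same order. All 13 HIF targets had a positive fold change with each source at this dose, with medians of 0.54 and 0.41. So had all 19 enzymes, with medians of 0.22 and 0.13, against -0.001 and -0.002 over all genes. Both comparisons share the blank libraries, and the targets moved together between libraries, so these signs are not independent. With HCC+ vesicles at 0.048 mg/mL, 13 of 13 targets and 18 of 19 enzymes were positive too. Without HCC+ replicate 1, which lay lowest of its group for 13 of 13 targets, 3 targets passed with HCC+ vesicles. The share of all genes called in that fit is not given here. That library was low for the targets themselves, so leaving it out raises their mean, and the 3 are not a result about them.

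At 0.048 mg/mL, calls among the 40 genes against the blank came only with HCC- vesicles, which is not a test between the sources. HCC+ vesicles gave 0 called genes among the 40, beside 0.0% of all genes, and 0 with DESeq2. At an unadjusted p under 0.05 there were 2 of the 40, beside 944 of all 19556 tested genes. HCC- vesicles gave 18 higher and 1 lower, where 8.28% of all tested genes were higher and 8.16% lower: 10 enzymes, 2 of the 4 transport genes and 6 HIF targets rose, and HIF1A fell. The enzymes had a median of 0.28 and the HIF targets one of 0.70, against 0.001 over all genes.

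The calls depended on single blank libraries. Among the enzymes GAPDH had 4801, 4921 and 4176 CPM (log2 fold change 0.28 ± 0.076 SE, adjusted p = 0.0163), with 1 blank library inside that range. ENO1 had 4609.8, 4639 and 3986 (0.26 ± 0.077) and TPI1 1380.1, 1408 and 1304 (0.24 ± 0.071), with the same overlap. PKM had 3366, 3395 and 3254 CPM (0.27 ± 0.064) and PGAM1 863, 868 and 789 (0.27 ± 0.073), both above the whole blank range. GPI had 1025, 1057 and 872 CPM (0.38 ± 0.10) and HK1 156, 156 and 142 (0.34 ± 0.083). PFKP had 439.6, 442 and 389 CPM against 272, 355 and 307 in the blank (0.45 ± 0.10), and PFKL 258, 256 and 225 (0.47 ± 0.14), without overlap. ALDOA, of uncertain level, had 13.9, 14.1 and 10.3 CPM (0.72 ± 0.19). Without blank replicate 1, without blank replicate 3, or with GC and length trends removed, 0 of the 19 enzymes were called. Removing those trends also shrank the calls over all 19556 genes, from 1620 higher and 1596 lower to 67 and 28.

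Among the other genes, SLC2A1 had 397, 399 and 312 CPM at 0.048 mg/mL of HCC- vesicles (0.65 ± 0.21) and SLC16A3 652, 640.3 and 589 (0.55 ± 0.11), above all blank libraries. HIF1A had 151, 140.4 and 158 CPM, below all of the blank (log2 fold change -0.38 ± 0.10 SE, adjusted p = 0.0127), a call lost with GC and length trends removed and without HCC- replicate 2, blank replicate 1 or blank replicate 3. Without blank replicate 1 or 3, or with those trends removed, SLC2A1 and SLC16A3 were not called either, and SLC2A1 was also not called without the filter on low counts or without any 1 of the HCC- libraries. The targets that rose were ANGPTL4, a lipase inhibitor, at 34.6, 40.6 and 22.8 CPM against 8.77, 16.4 and 11.4 (log2 fold change 1.42 ± 0.40 SE, adjusted p = 0.029), and CA9, at 1.45, 3.31 and 0.997 (1.40 ± 0.38). They lay above the blank range in every library. ANKRD37 had 5.32, 6.10 and 3.29 CPM (1.07 ± 0.24), DDIT4 245, 236 and 186 (0.86 ± 0.27), the vasodilator peptide ADM 81.3, 78.6 and 65.7 against 40.4, 53.7 and 44.6 (0.70 ± 0.22) and P4HA2 49.7, 54.4 and 44.7 (0.41 ± 0.091). These too were above every blank library, yet 0 of the 13 targets were called without blank replicate 1, without blank replicate 3 or without HCC- replicate 2, and 2 with GC and length trends removed.

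Between the sources at 0.048 mg/mL 4 of the 40 genes were lower with HCC+ vesicles and 1 higher, where 2.46% and 1.08% of all tested genes were. Of the 13 HIF targets and of the 4 subunits and sensors, 0 were called in either direction. The 4 were GAPDH at 3782, 3945 and 3830.3 CPM with HCC+ vesicles (-0.27 ± 0.076, adjusted p = 0.048), PFKP at 321, 338 and 331 (-0.36 ± 0.10, adjusted p = 0.0421), SLC16A3 at 471, 449.6 and 463 (-0.44 ± 0.11, adjusted p = 0.0331) and ALDOA at 6.04, 7.01 and 6.93 (-0.95 ± 0.19, adjusted p = 0.0227). In each the HCC+ libraries lay below all HCC- libraries of that dose. LDHB was higher, at 21.7, 25.9 and 25.6 against 16.6, 16.2 and 18.9 CPM (0.50 ± 0.12, adjusted p = 0.0284). Each of these 5 calls was lost on leaving out 1 library in at least 4 of the 6 ways of doing so. With GC and length trends removed, 0 were called lower and 1 higher, and 7 were lower and 2 higher without the filter on low counts, 8 and 2 with DESeq2. The background moved too. With those trends removed, 24 of all 19556 genes were lower and 10 higher. Without the filter 850 of 37659 were lower and 633 higher, and with DESeq2 1462 of 11594 were lower and 629 higher.

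The doses of 0.24 and 1.2 mg/mL were also compared within each source. With HCC- vesicles 17 of 19 enzymes, 3 of 4 transport genes, 3 of 4 subunits and sensors and 10 of 13 HIF targets fell from the lower to the higher dose, beside 28.0% of all genes, and 1 enzyme, PFKFB3, rose (0.23 ± 0.061), beside 23.9%. With HCC+ vesicles 12 enzymes, 3 transport genes and 4 targets fell, beside 15.5% of all genes, and PFKFB3 again rose (0.21 ± 0.061), beside 13.7%. PDK1 fell with both sources, with log2 fold changes of -2.31 ± 0.19 for HCC- and -0.91 ± 0.18 for HCC+ vesicles, and so did BNIP3, with -1.75 ± 0.20 and -0.69 ± 0.19. The count of 4 targets became 10 without HCC+ 0.24 mg/mL replicate 1, and 2 without either other library of that group or without HCC+ 1.2 mg/mL replicate 1. P4HA2 and ANKRD37, the targets that rose against the blank with HCC+ vesicles, did not pass over this step (-0.003 and -0.26), and HIF1A rose (0.35 ± 0.10, adjusted p = 0.00661).

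Over the 6 treated groups the enzymes and the HIF targets took the same order. Averaged over the 19 enzymes, the log2 level relative to the blank mean was -0.66 ± 0.062 (SD, n = 3) with HCC- vesicles at 1.2 mg/mL and -0.078 ± 0.13 with HCC+ vesicles at that dose. It was 0.10 ± 0.066 for HCC+ at 0.048 mg/mL, 0.18 ± 0.14 for HCC- and 0.24 ± 0.22 for HCC+ at 0.24 mg/mL, and 0.34 ± 0.11 for HCC- at 0.048 mg/mL. The blank itself had an SD of 0.15, and the 3 libraries of HCC- at 1.2 mg/mL lay below all others. For the 13 HIF targets the values were -0.35 ± 0.076, 0.15 ± 0.21, 0.27 ± 0.19, 0.49 ± 0.25, 0.57 ± 0.48 and 0.67 ± 0.27 in the same sequence of groups, with a blank SD of 0.21. Here too the HCC- libraries at 1.2 mg/mL were the lowest, below every blank library.

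The HIF targets varied between libraries of a group more than the enzymes did. The median within-group SD was 0.28 on the log2 scale for the 13 targets and 0.14 for the 19 enzymes, and it reached 0.49 among targets and 0.32 among enzymes. In the group of HCC+ vesicles at 0.24 mg/mL, NDRG1, a stress-induced differentiation gene, had 138, 343 and 313 CPM in replicates 1, 2 and 3, ANGPTL4 had 13.0, 40.1 and 37.9 and ADM had 40.8, 80.6 and 80.4. Replicate 1 was the lowest library of this group for 13 of 13 targets. It was also the lowest for 13 of 13 with HCC+ vesicles at 0.048 mg/mL, and for 11 of 13 both with HCC+ vesicles at 1.2 mg/mL and in the blank. With HCC- vesicles at the lower doses the low library was another one. Replicate 3 was the lowest for 13 of 13 targets at 0.048 mg/mL and for 9 of 13 at 0.24 mg/mL, where replicate 2 was the highest for 13 of 13. At 1.2 mg/mL of HCC- vesicles replicate 1 was the lowest for 7 of 13.

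The swing reached genes outside the target list. SLC2A1 had 214, 389.8 and 383 CPM in the 3 libraries of HCC+ vesicles at 0.24 mg/mL and PFKFB4 had 43.8, 94.0 and 87.2, against 205, 205 and 206 for PFKM and 2869, 3296 and 3183 for PKM. Averaged over the 13 targets on the log2 scale relative to the blank mean, those libraries stood at 0.010, 0.87 and 0.82, so 1 library sat at the blank level and 2 well above it. The blank libraries themselves ran from -0.21 to 0.22, and the HCC- libraries at 1.2 mg/mL were the closest together, from -0.41 to -0.27. HIF1A was highest in the library with the lowest mean of the targets in 5 of the 7 groups, as at HCC+ 0.24 mg/mL, where it had 197, 155 and 167 CPM. What set these libraries apart was not tested, and the labels give no batch.

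**Figure D5:**
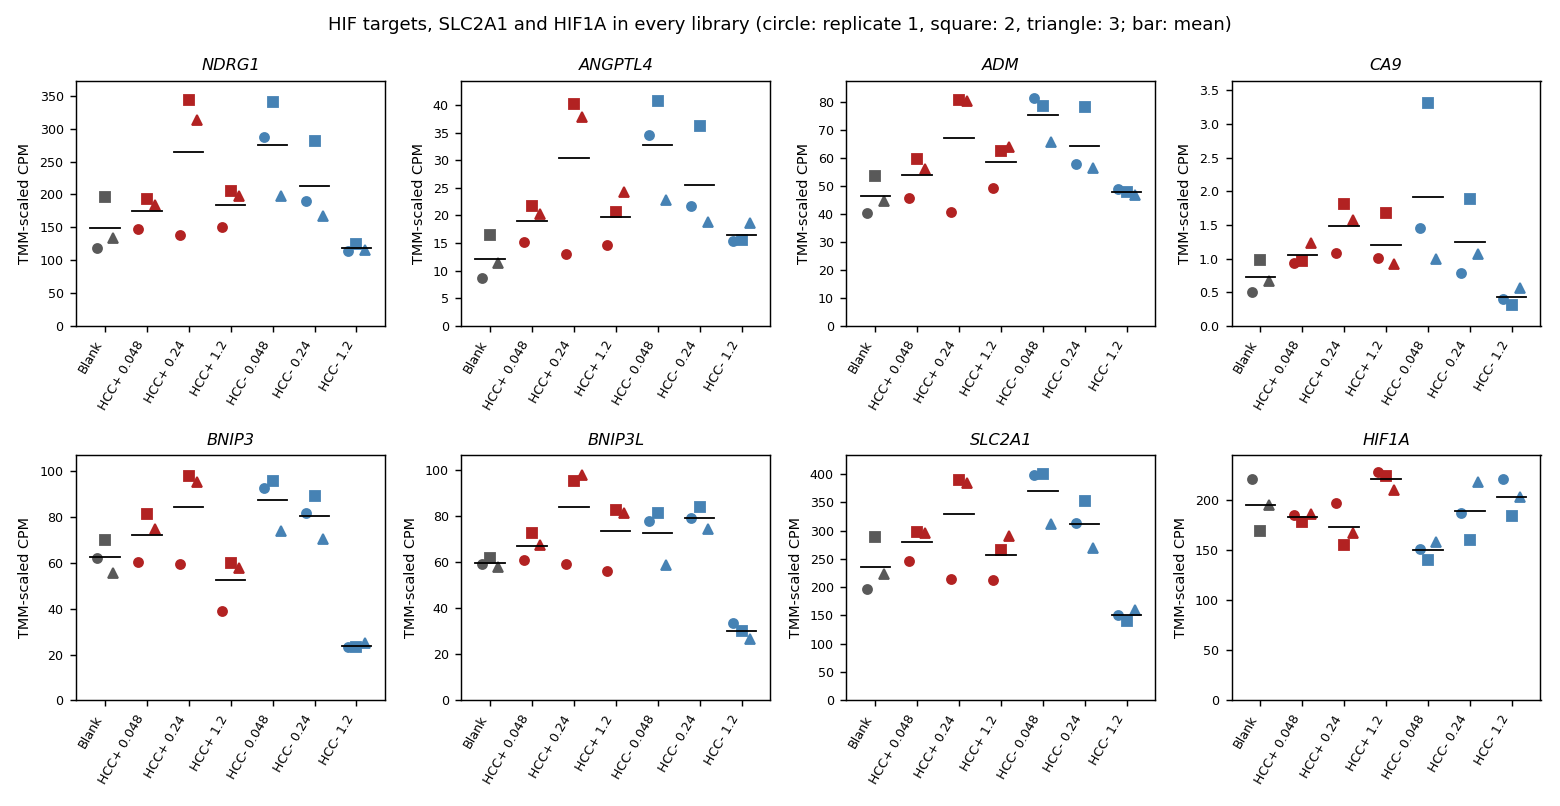
TMM-scaled CPM (y axis, from 0) of 6 HIF targets, SLC2A1 and HIF1A in every library of the 7 groups (x axis), with circles for replicate 1, squares for 2, triangles for 3 and bars for the mean of 3. With HCC+ vesicles at 0.24 mg/mL the circle lies well below the other symbols for NDRG1, ANGPTL4, ADM, BNIP3, BNIP3L and SLC2A1, and above them for HIF1A.

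Other genes of the same pathways were counted in the same fits, and their counts at 1.2 mg/mL stand beside the shares of all tested genes: 15.6% higher and 17.4% lower with HCC+ vesicles, 24.8% and 28.5% with HCC-, and 22.6% and 12.7% between the sources. Of 8 genes of the pentose phosphate pathway 7 fell and 0 rose with HCC- vesicles at 1.2 mg/mL, led by TALDO1 (-0.98 ± 0.061), TKT (-0.70 ± 0.058), RPIA (-0.76 ± 0.075) and PGD (-0.46 ± 0.052), and 6 fell with HCC+ vesicles, among them TALDO1 (-0.44 ± 0.061), RPIA (-0.53 ± 0.075), PGLS (-0.44 ± 0.10) and RPE (-0.24 ± 0.085). TKT (0.58 ± 0.058) and TALDO1 (0.54 ± 0.061) led the 6 that were higher with HCC+ than with HCC- vesicles, followed by PGD (0.32 ± 0.052). Of 27 tested further genes of glycolysis and pyruvate use, 11 fell and 9 rose with HCC- vesicles, split over both directions like all genes. The lowest p were those of PDHA1, a subunit of pyruvate dehydrogenase (-0.88 ± 0.071), PGM1 (-0.64 ± 0.066), PDK3 (-0.96 ± 0.10) and the pyruvate carrier subunit MPC1 (-0.84 ± 0.11). With HCC+ vesicles 7 rose and 2 fell: the glucose carrier SLC2A12 (1.44 ± 0.19), GALM (0.62 ± 0.086) and PDK4 (1.03 ± 0.18) rose and PDHA1 (-0.41 ± 0.071) fell. Between the sources 12 were higher with HCC+ vesicles, led by PGM1 (0.84 ± 0.066), PDK3 (0.96 ± 0.10), DLAT (0.49 ± 0.066) and MPC1 (0.75 ± 0.11), and 2 lower.

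Among 11 further genes of the HIF system, CITED2, which competes with HIF for its coactivators, rose with both sources, by 0.77 ± 0.071 with HCC+ and 1.20 ± 0.071 with HCC- vesicles. HIF1AN, the asparaginyl hydroxylase that blocks HIF activity, rose by 0.20 ± 0.056 and 0.37 ± 0.056. ELOC and RBX1, parts of the ubiquitin ligase that removes HIF, fell with both, ELOC with -0.38 ± 0.064 and -0.65 ± 0.065 and RBX1 with -0.23 ± 0.065 and -0.44 ± 0.065. In all 2 of the 11 rose and 3 fell with HCC+ vesicles, beside 15.6% and 17.4% of all tested genes. With HCC- vesicles 4 rose and 4 fell, beside 24.8% and 28.5%. The 2 comparisons share the blank, and in both the calls were split over the directions, as over all genes. Of 30 tested further HIF targets, beside these same shares of all genes, 8 rose and 3 fell with HCC+ vesicles, and 3 rose and 12 fell with HCC- vesicles. STC2, a secreted glycoprotein, fell (-1.22 ± 0.15) with HCC+ vesicles, where LOXL2 (1.01 ± 0.15), CXCR4 (1.07 ± 0.21) and CA12 (0.51 ± 0.14) rose. With HCC- vesicles the mitochondrial adenylate kinase AK4 (-1.52 ± 0.11), GBE1 (-0.82 ± 0.091) and ERO1A (-0.56 ± 0.081) fell and LOXL2 (1.32 ± 0.15) rose. AK4 (1.19 ± 0.10), GBE1 (0.64 ± 0.09), TMEM45A (0.92 ± 0.15) and PLOD1 (0.70 ± 0.11) led the 15 that were higher with HCC+ than with HCC- vesicles, beside 22.6% of all tested genes.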

How the data were processed

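The authors deposited 1 table of raw counts, whole reads per gene in 21 libraries, with the gene model's length. The submitters' processing notes name cutadapt 3.4, HISAT2 2.2.1 and featureCounts 2.0.1 with GRCh38; how strand and multimapped reads were handled is not stated there. Libraries came from the NEBNext Ultra II kit, per the labels' protocols. Symbols came from a RefSeq gene table matched by identifier (58472 of 65065).

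Counts were fitted with edgeR 4.0.16 in R 4.3.3: TMM scaling, filterByExpr (19556 genes kept), 1 mean per group over all 21 libraries (14 residual degrees of freedom), robust quasi-likelihood tests, and Benjamini-Hochberg adjustment over all tested genes at 0.05. CPM and RPKM are TMM-scaled values computed from the counts, with the mean of a class over libraries taken from log2(CPM + 0.1). Isozyme shares were compared with an exact 2-sided permutation test. Alternatives were other scalings, no filter, DESeq2 1.42.0, a replicate block, removal of trends with GC content and length, and leaving out each library. The fits were checked on simulated counts. The precision is set by 3 libraries a group at 31.22 to 64.01 M counts.

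The 40 genes, their classes and the other lists were chosen with earlier results of these data known. Values in every library are given, per class, for up to 5 called genes in each direction with the largest change at 1.2 mg/mL, and for every one called at lower doses; of the other lists up to 4 called genes with the smallest p are named, and some items are not reported here. Figures were drawn with matplotlib 3.10.9.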

Additional observations from a re-analysis of the deposited data

Results flagged for a closer look

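For 20 of the 40 genes the difference between HCC+ and HCC- vesicles was not the same at 1.2 mg/mL as at 0.24 mg/mL, by the test of that change itself (edgeR's quasi-likelihood test, adjusted over all tested genes), which called 15.1% of all genes in the positive and 6.26% in the negative direction. The values below are the log2 difference at the higher dose minus that at the lower. Among enzymes it was 0.94 for PFKL, 0.76 for LDHA, 0.60 for GAPDH, 0.60 for TPI1, 0.60 for HK1, 0.59 for LDHB, 0.53 for GPI, 0.52 for PGAM1, 0.52 for ENO1, 0.49 for PFKM and 0.49 for PGK1. In the transport class it was 1.40 for PDK1, 0.43 for SLC16A3 and -0.92 for SLC2A3. It was 0.89 for EPAS1 and 0.69 for EGLN1, and among HIF targets 1.19 for BNIP3L, 1.07 for BNIP3, 0.55 for P4HA2 and -0.77 for VEGFA. VEGFA and SLC2A3 were the genes among these 20 with a negative value. Of these calls, SLC16A3 was lost under total count scaling and on leaving out any of 7 libraries, SLC2A3 without HCC+ 0.24 mg/mL replicate 2 or HCC- 1.2 mg/mL replicate 3, GPI and LDHB under total count scaling, and PGK1 with GC and length trends removed.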

How the results depend on the processing

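Of 169 calls of a gene in a comparison, 65 were lost under some alternative, 50 of them under one that kept all libraries, and 2 values with HCC- vesicles at 1.2 mg/mL against the blank reversed: PKM to -0.0033 with GC and length trends removed and P4HA2 to 0.018 under total count scaling. Total count scaling gave, against the blank, 2 enzymes lower in place of 5 and 0 targets lower in place of 1 with HCC+ vesicles at 1.2 mg/mL, and 2 targets lower in place of 5 with HCC-; 1 enzyme lower in place of 0 between the sources; 2 enzymes higher in place of 1 from 0.24 to 1.2 mg/mL with either source; and with HCC- vesicles over that step 1 target higher in place of 0 and 6 lower in place of 10. It moved the split of all calls higher and lower to 4657 and 2069 for HCC+ and 8128 and 3097 for HCC- vesicles at 1.2 mg/mL, and to 2342 and 4572 between them. DESeq2 gave 0 targets lower with HCC+ vesicles at 1.2 mg/mL, and 1 enzyme lower in place of 0 and 10 targets higher in place of 6 with HCC- vesicles at 0.048 mg/mL, where no filter also gave 1 enzyme lower. In that last group DESeq2 called 2076 of 13869 genes higher and 2062 lower against the blank. With GC and length trends removed, HCC- vesicles at 1.2 mg/mL gave 1 enzyme higher in place of 2 and 0 targets higher in place of 1, those at 0.048 mg/mL gave 0 enzymes higher in place of 10 and 2 targets higher in place of 6, and 0 enzymes rose from 0.24 to 1.2 mg/mL of HCC-. Over all genes, that removal left 67 higher and 28 lower with HCC- vesicles at 0.048 mg/mL against the blank, in place of 1620 and 1596. The cause was not tested. Leaving out 1 library gave 1 to 5 enzymes lower, 0 to 2 targets higher and 0 to 1 lower with HCC+ vesicles at 1.2 mg/mL against the blank; 1 to 2 enzymes higher, 0 to 1 targets higher and 3 to 5 lower with HCC-; 0 to 13 enzymes higher, 0 to 1 lower and 0 to 8 targets higher with HCC- at 0.048 mg/mL; and 2 to 10 targets lower from 0.24 to 1.2 mg/mL of HCC+. Replicate numbers are not stated to pair samples, and 20 of 63 pairs of libraries with the same number had residuals correlated over 0.1. Pairs with different numbers were not counted, so this cannot tell whether the numbers pair samples. With the number as a replicate block, 10 targets in place of 6 rose with HCC- at 0.048 mg/mL, and the other class counts stayed within 1.5 times. Of 21 comparisons of isozyme shares, 3 moved by more than the spread between libraries when shares were taken without gene length. The 3 libraries per group limit the smaller changes, and the low genes PDK1, CA9 and SLC2A3 are also limited by depth.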
